A study of Mus musculus with 12 samples.

Results

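The genes described here encode the subunits of the mitochondrial respiratory chain and the ATP synthase, with cytochrome c and the assembly factors that share their gene symbols. A gene was a member if its symbol in GENCODE release M21 began with Nduf, Uqcr, Cox4 to Cox8, Atp5 or mt-, or was Sdha, Sdhb, Sdhc, Sdhd, Cyc1 or Cycs. This rule found 106 of the 12287 genes formed from the deposited table: 93 encoded in the nucleus and 13 in the mitochondrial genome, from 187 listed transcripts. They divide into 43 genes of complex I, 4 of complex II, 10 of complex III, 21 of complex IV, 18 of complex V, cytochrome c and 9 assembly factors. Another 39 symbols of the rule had no listed transcript, among them the 22 mitochondrial tRNAs, the 2 mitochondrial rRNAs and the protein-coding genes Cox7b2 and Cox8c, and were not analysed here.

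The RNA came from aortae of C57BL/6 mice aged 7 weeks. The 6 control samples carry no label beyond control, and the 6 others came from mice fasted for 24 h. No sample is labelled with a transgene or a drug. The labels do not say that each sample is a separate animal, so the p-values speak of the spread among 12 samples, which may in part be technical.

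Complexes I to IV pass electrons from NADH and succinate to oxygen, and complexes I, III and IV pump protons across the inner mitochondrial membrane. The proton gradient drives complex V, the ATP synthase. Some core subunits of complexes I, III, IV and V are made from mitochondrial DNA inside the organelle. All other subunits are nuclear products that are imported and joined to them by dedicated assembly factors.

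Values are FPKM (fragments per kilobase, relative to all mapped fragments of the library), added up over a gene's listed transcripts. The number of reads behind them is unknown. All listed transcripts together held 299588 to 327492 FPKM in a library. A difference is the fasted mean less the control mean of log2(FPKM + 1), which understates the change of low genes, with the SE from limma. "Called" means an adjusted p under 0.05 in limma (two-sided, Benjamini-Hochberg over all 12063 genes tested), and "higher", "lower", "rose" and "fell" are used of such genes. The smooth muscle markers of the aorta were abundant in every library, summing to 8554 to 10696 FPKM in controls and 8416 to 9637 FPKM in fasted aortae; of these 7 markers 1 was higher and 1 lower. Of the other markers, 2 of 6 for adipocytes, 1 of 6 for endothelium, 2 of 5 for fibroblasts and 1 of 5 for macrophages were higher, 1 each of the fibroblast, macrophage and Schwann cell lists were lower, and none of 4 for skeletal muscle or 5 for erythroid cells was called by limma. In these whole-tissue samples, fewer cells of a type and less RNA per cell cannot be told apart.

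The nuclear genes called after the fast were mostly lower, 24 of 27. Of these 24, 10 encode complex I subunits and 4 assembly factors. The lower genes made up 27.8% of the 36 nuclear complex I genes, near the 25.8% of all 93 nuclear members. No mitochondrial gene was called. The 3 genes that rose encode a supercomplex factor (Cox7a2l), the Rieske protein of complex III (Uqcrfs1) and a complex I subunit (Ndufa6). All 106 members passed the filter on low values. Of them 27 were called (25.5%), 3 higher and 24 lower, where 31.7% of all genes tested were called, 13.8% higher and 17.9% lower. The share of members called lower, 22.6%, was thus somewhat above that background, and the share called higher, 2.83%, was below it. The median log2 difference was -0.12 over the members and -0.02 over all genes tested, and 85 of the 106 members had a negative difference. Fasted replicate 1 gave the lowest value of all 12 libraries in 52 of the 93 nuclear members, and without it 23 members were called. Fasted replicate 3 gave the highest value in 20 nuclear and 10 mitochondrial members, and without it 35 were called. Over all libraries left out singly the count ran from 21, without control replicate 3, to that 35.

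**Figure D1:**
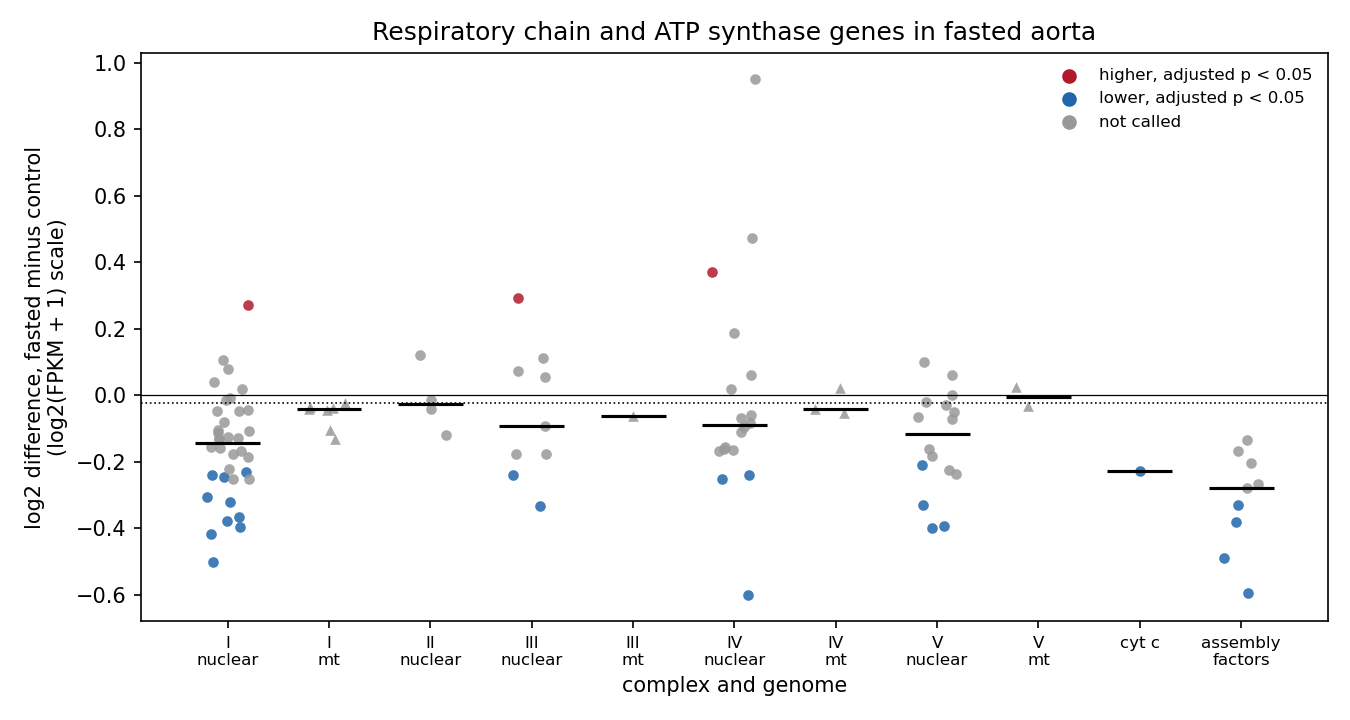
Log2 difference, fasted minus control, of each member by complex and genome (circles nuclear, triangles mitochondrial; bars mark medians, the dotted line the median of all genes tested). Called members lie between -0.60 and 0.37, and the 13 mitochondrial genes lie between -0.13 and 0.02 with none called.

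The mitochondrial genome supplied most of the RNA of these complexes. Its 13 protein genes summed to 25280 to 32344 FPKM in controls and 24774 to 35136 FPKM in fasted aortae, while the 93 nuclear members summed to 5364 to 6348 and 4859 to 5891 FPKM. The ratio of these sums was 4.89 ± 0.392 in controls and 5.14 ± 0.536 in fasted aortae (SD, n = 6). The highest single gene was mt-Co1, the catalytic subunit 1 of cytochrome c oxidase, with 4290 ± 477 FPKM (control) and 4367 ± 569 FPKM (fasted). It was followed by mt-Cytb of complex III, at 3627 ± 408 and 3482 ± 480 FPKM. The lowest was mt-Nd6, the one protein gene on the other strand of the mitochondrial genome, at 57.6 ± 10.3 and 55.8 ± 8.43 FPKM. Libraries were selected for poly(A) tails, so these levels also reflect how far each RNA is polyadenylated.

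None of the 13 mitochondrial genes was called by limma, and 0 had an unadjusted p under 0.05. Their log2 differences ran from -0.13 for mt-Nd4l to 0.02 for mt-Atp6, with a median of -0.04. The 95% interval was -0.32 to 0.06 for mt-Nd4l and -0.19 to 0.24 for mt-Co1, so true differences within such bounds remain possible. For mt-Co1 the controls ran from 3849 to 4799 FPKM around a median of 4214, and the fasted libraries from 3897 to 5385 around 4138. Fasted replicate 3 gave the highest value of all 12 libraries in 10 of the 13 genes, and control replicate 3 in the other 3. The median SD within groups was 0.18 log2 units for mitochondrial members, 0.14 for nuclear members and 0.15 for all genes tested.

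Complex I, the NADH dehydrogenase, is the largest complex. Of its 36 nuclear genes 1 was higher and 10 were lower, with a median log2 difference of -0.14. The 30.6% called lay near the 31.7% of all genes tested, with 2.78% higher against 13.8% and 27.8% lower against 17.9%. The 7 nuclear core subunits carry the flavin and the iron-sulfur clusters or form the quinone site. They held 1 of the 11 calls (14.3% of the core genes). The 29 accessory subunits held the other 10 (34.5% of them). The difference between core and accessory subunits was not tested. The one core gene was Ndufs8, which binds iron-sulfur clusters next to the quinone site (chromosome 19, 3908863 to 3912774 on GRCm38). Ndufs8 ran from 33.2 to 42.4 FPKM in controls (median 34.3) and from 22.6 to 30.7 FPKM in fasted aortae (median 28.2), with no overlap. It fell 1.31-fold (log2 difference -0.38 ± 0.08, adjusted p = 0.00441). Among all genes tested, 17.0% had groups that did not overlap, 6.78% with fasted above and 10.2% with fasted below.

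Of the accessory subunits, Ndufs6, a zinc-binding subunit needed late in assembly (chromosome 13, 73319838 to 73328542), ran from 40.6 to 60.9 FPKM in controls with a median of 48.0. In fasted aortae it ran from 32.5 to 38.2 FPKM with a median of 37.2, below every control (log2 difference -0.42 ± 0.09, adjusted p = 0.00450). Ndufb3, an accessory subunit of the membrane arm (chromosome 1, 58586384 to 58595964), also separated the groups. Its controls ran from 66.7 to 86.9 FPKM and its fasted libraries from 53.7 to 63.3 FPKM (log2 difference -0.32 ± 0.07, adjusted p = 0.00432). Ndufc1, a small membrane-arm subunit, had the largest fall of the complex (1.43-fold, from 26.1 ± 2.94 to 18.2 ± 2.76 FPKM, adjusted p = 0.00242), and 5 of 6 fasted libraries lay below all controls.

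The other accessory subunits called lower were Ndufa1, Ndufa3, Ndufa7, Ndufa10, Ndufb2 and Ndufs5, named after their values were seen. Their log2 differences ran from -0.39 for Ndufb2 to -0.23 for Ndufa10. The exception in direction was Ndufa6, an accessory subunit of the LYR family that binds the acyl carrier protein, also named after its value was seen. Ndufa6 ran from 87.9 to 108 FPKM in controls (median 92.8) and from 103 to 125 FPKM in fasted aortae (median 119). It rose 1.21-fold (log2 difference 0.27 ± 0.06, adjusted p = 0.00558), with 5 of 6 fasted libraries above all controls.

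**Figure D2:**
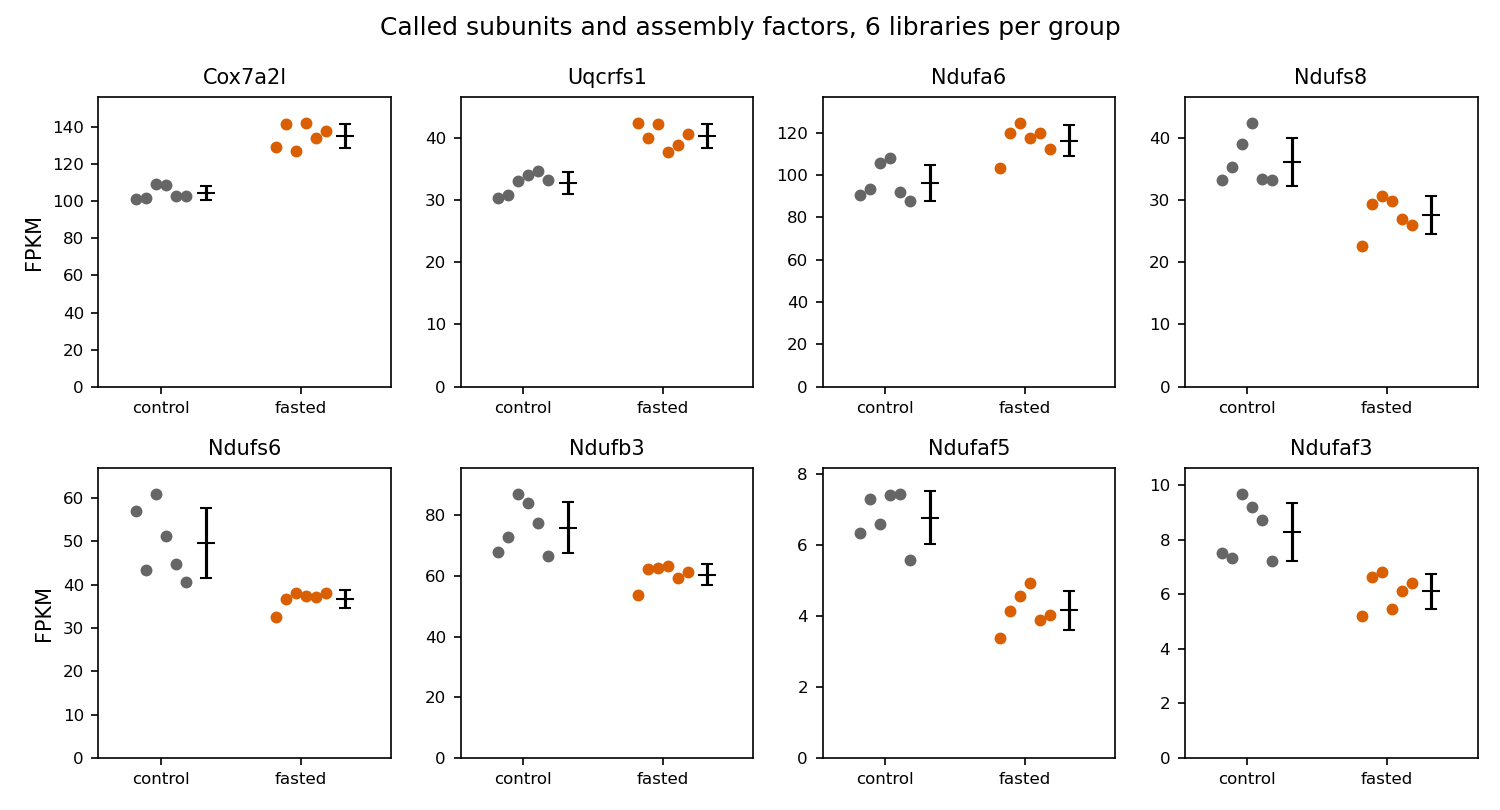
FPKM of 8 called members in each library, 6 per group, with the mean and SD beside the points. Cox7a2l and Uqcrfs1 lie above all controls in every fasted library, Ndufa6 overlaps, and Ndufs8, Ndufs6, Ndufb3, Ndufaf5 and Ndufaf3 lie below all controls.

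Complex II, the succinate dehydrogenase, had no called gene among its 4, with limma, and 2 had an unadjusted p under 0.05. These pointed in opposite directions. Sdha, the flavin subunit that oxidises succinate, measured 55.3 ± 2.54 FPKM (control) and 60.3 ± 4.06 FPKM (fasted; log2 difference 0.12, adjusted p = 0.0925). Sdhd, a membrane anchor, was at 47.2 ± 3.05 and 43.4 ± 1.96 FPKM (log2 difference -0.12, adjusted p = 0.0840). Sdhb and Sdhc lay at -0.04 and -0.01. Sdha was called higher by limma with median-of-ratios scaling (log2 difference 0.15, adjusted p = 0.0300) and without fasted replicate 3, its lowest fasted library (0.16, adjusted p = 0.00743).

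Complex III, the cytochrome bc1 complex, had 1 gene higher and 2 lower of 10. The 30% called lay near the 31.7% of all genes tested, with 10% higher against 13.8% and 20% lower against 17.9%. Uqcrfs1 encodes the Rieske iron-sulfur protein, which hands electrons to cytochrome c1 (chromosome 13, 30540308 to 30545362). It ran from 30.4 to 34.7 FPKM in controls with a median of 33.1, and from 37.7 to 42.4 FPKM in fasted aortae with a median of 40.2. Every fasted library was above every control, and the gene rose 1.23-fold (log2 difference 0.29 ± 0.05, adjusted p = 0.000497). The small subunits Uqcr11 and Uqcrq fell by 0.33 ± 0.10 and 0.24 ± 0.08 on the log2 scale (adjusted p = 0.0203 and 0.0361), with overlapping groups. Uqcrb and Uqcrh, the most abundant nuclear members of the complex, were not called, at -0.18 and 0.11. Cycs, the soluble carrier cytochrome c between complexes III and IV, fell from 20.8 ± 2.33 FPKM to 17.6 ± 0.830 FPKM (a log2 difference of -0.23 ± 0.07, adjusted p = 0.0234).

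Complex IV, cytochrome c oxidase, had 1 gene higher and 3 lower of 21. The 19.0% called lay below the 31.7% of all genes tested, with 4.76% higher against 13.8% and 14.3% lower against 17.9%. The gene called higher was Cox7a2l, which gave the smallest adjusted p of all members. It encodes a relative of the Cox7a subunits that links complexes III and IV into supercomplexes, and C57BL/6 mice are known to carry a shortened form of the protein. Cox7a2l (chromosome 17, 83501918 to 83517330) ran from 101 to 109 FPKM in controls with a median of 103. In fasted aortae it ran from 127 to 142 FPKM with a median of 136, above all controls. It rose 1.30-fold (log2 difference 0.37 ± 0.04, adjusted p = 4.56e-05).

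The largest fall in complex IV was that of Ndufa4l2, a hypoxia-inducible relative of the subunit Ndufa4. Ndufa4l2 ran from 10.2 to 15.4 FPKM in controls (median 10.5) and from 6.18 to 10.3 FPKM in fasted aortae (median 6.86). The groups overlapped through fasted replicate 3, and the gene fell 1.58-fold (log2 difference -0.60 ± 0.13, adjusted p = 0.00294). Ndufa4 itself fell from 94.0 ± 10.1 to 79.3 ± 6.38 FPKM (adjusted p = 0.0300), and Cox7b, a small membrane subunit, from 68.7 ± 6.54 to 57.5 ± 4.86 FPKM (adjusted p = 0.0185). The abundant subunits Cox4i1 and Cox6a1 were not called, with log2 differences of 0.06 and -0.08, although without fasted replicate 3 Cox6a1 was called lower by limma (-0.16, adjusted p = 0.0415).

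Complex V had no higher and 4 lower genes of 18. The 22.2% called lower lay near the 17.9% of all genes tested. In either direction, 31.7% of all genes tested were called. Atp5h, the most abundant nuclear member, was not called (log2 difference -0.24, adjusted p = 0.0835). Without control replicate 2 Atp5h was called lower by limma (-0.32, adjusted p = 0.00873). Atp5g1, 1 of 3 genes for the c subunit of the rotor ring, ran from 19.2 to 30.7 FPKM in controls (median 22.2) and from 14.9 to 19.4 FPKM in fasted aortae (median 17.6). It fell 1.35-fold (log2 difference -0.40 ± 0.10, adjusted p = 0.00904), with 5 of 6 fasted libraries below all controls. Atp5e, the epsilon subunit of the central stalk, fell from 144 ± 16.8 to 110 ± 16.1 FPKM (adjusted p = 0.0101). Atp5j, the coupling factor F6 of the peripheral stalk, fell from 58.5 ± 4.19 to 46.6 ± 6.67 FPKM (adjusted p = 0.0138), and Atp5mpl fell by 0.21 ± 0.07 on the log2 scale (adjusted p = 0.0389). Atp5a1 and Atp5b, the alpha and beta subunits of the catalytic head, named after their values were seen, were not called and lay at 0.00 and -0.07, with 95% intervals of -0.10 to 0.10 and -0.20 to 0.06.

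Assembly factors among the members all had negative differences, and 4 of 9 were called lower (44.4%, against 17.9% of all genes tested). Of the 8 Ndufaf genes alone, 3 were lower (37.5%). Ndufaf5, which modifies the core subunit Ndufs7 (chromosome 2, 140170649 to 140203689), ran from 5.56 to 7.43 FPKM in controls with a median of 6.93. In fasted aortae it ran from 3.38 to 4.92 FPKM with a median of 4.08, below all controls (1.63-fold lower, log2 difference -0.59 ± 0.09, adjusted p = 0.000252). Ndufaf3, an early complex I assembly factor, fell from 8.27 ± 1.06 to 6.11 ± 0.645 FPKM (adjusted p = 0.00475), and Ndufaf8, a partner of Ndufaf5, from 15.0 ± 1.91 to 10.5 ± 2.01 FPKM (adjusted p = 0.00608). For all 3 the groups did not overlap, with fasted below, which held for 10.2% of all genes tested. Atp5s, a factor linked to the ATP synthase, fell from 3.81 ± 0.596 to 2.81 ± 0.284 FPKM (adjusted p = 0.0133).

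The groups were apart in 8 of the 106 members (7.55%), a smaller share than the 17.0% of all genes tested, with Cox7a2l and Uqcrfs1 above and Ndufb3, Ndufs6, Ndufs8, Ndufaf3, Ndufaf5 and Ndufaf8 below. Of the 27 calls, 21 held whichever 1 library was left out, the 3 higher genes among them. The call was lost for Ndufb2 without 1 library (adjusted p up to 0.0507), for Cycs without any of 3 (0.0504), for Ndufa4 of 4 (0.0642), for Ndufa10 of 5 (0.0648), for Uqcrq of 8 (0.0761) and for Atp5mpl of 9 (0.0838). With only the most abundant transcript of each gene, the calls of Atp5g1 (adjusted p = 0.0921), Ndufb2 (0.0539) and Uqcrq (0.0842) were lost. Median-of-ratios scaling ended those of Uqcrq (0.0694) and Atp5mpl (0.0635), and scaling without mitochondrial genes that of Atp5mpl (0.0549). The nuclear members had a median length of 838 bases, against 2906 for all genes tested. Among nuclear members of up to 600 bases, 10 of 27 were lower (37.0%), while 18.8% of all genes of that length were. From 601 to 1000 bases the shares were 20.7% of members and 24.9% of all genes, from 1001 to 2000 bases 20.0% and 19.6%, and above that 28.6% (2 of 7 members) and 16.7%. The length classes were chosen after the values were seen.

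Transcripts of 1 gene differed in opposite directions in Ndufv3, an accessory subunit of the NADH-binding module, which was not called as a gene (120 ± 9.16 and 110 ± 9.96 FPKM, adjusted p = 0.174). It was chosen after its values were seen. It has a short and a long form, and the long form contains an additional exon of 1092 bases (exon 3, chr17:31527310-31528401, plus strand, GRCm38). The sequences below are shown because they tell the forms apart: each gives 25 bases on either side of an exon junction, with the downstream exon in capitals, from the GENCODE transcripts.
Ndufv3 short, exon 2 to 3: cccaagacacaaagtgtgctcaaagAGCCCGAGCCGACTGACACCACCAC
Ndufv3 long, exon 2 to 3: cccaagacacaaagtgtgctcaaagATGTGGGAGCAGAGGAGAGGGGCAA
Ndufv3 long, exon 3 to 4: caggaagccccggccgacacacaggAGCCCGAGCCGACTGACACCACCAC

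The short form, whose exon 2 joins the last exon directly, ran from 72.1 to 96.2 FPKM in controls (median 75.5) and from 50.3 to 67.8 FPKM in fasted aortae (median 57.9). The long form ran the other way, from 32.6 to 43.5 FPKM in controls (median 38.0) and from 44.9 to 56.2 FPKM in fasted aortae (median 47.6). Neither form overlapped between groups. Another, rare transcript with an early end ran from 2.41 to 4.34 FPKM in controls and from 1.60 to 2.18 FPKM in fasted aortae and was also called lower (adjusted p = 0.00433). The short form fell by 0.41 and the long form rose by 0.36 on the log2 scale (limma over 20599 transcripts, adjusted p = 0.00774 and 0.00610). The long form made up 31.7% ± 3.15 of the gene's FPKM in controls and 44.6% ± 2.66 in fasted aortae (SD, n = 6; limma on shares, adjusted p = 0.0142). Of 121 member shares tested, from 44 members, 2 were called, the long and the short share of Ndufv3. These 2 are parts of one total and so not independent. Of all 14107 shares 0.532% were called. The deposited identifiers carry another version number than the annotation used here.

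**Figure D3:**
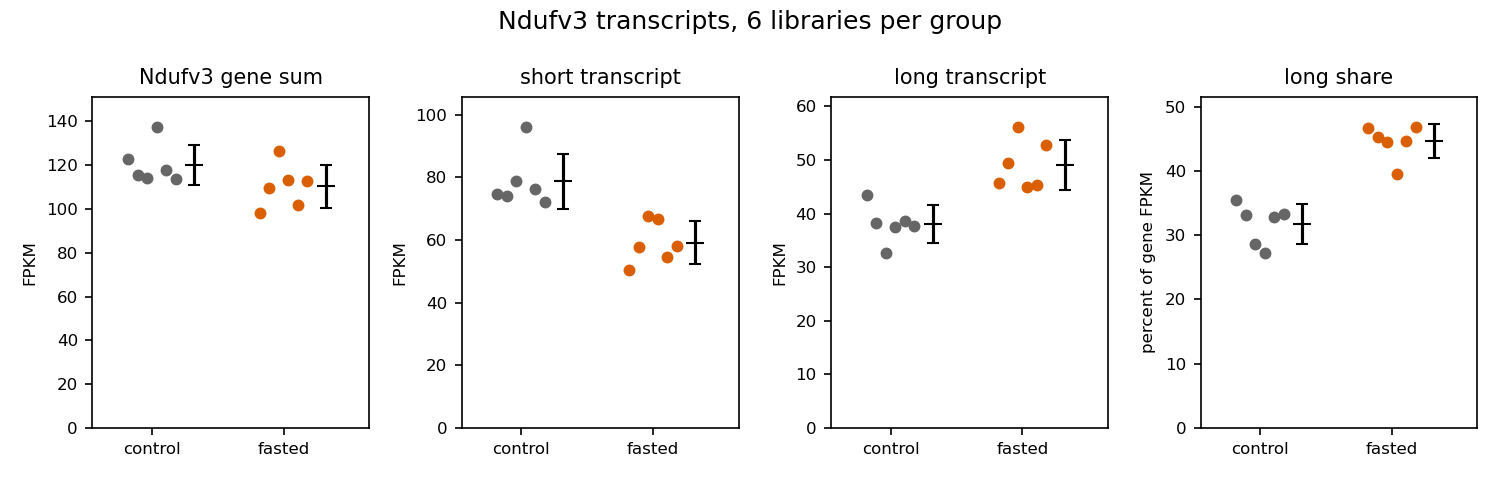
Ndufv3 in each library, 6 per group, with mean and SD: FPKM of the gene, of the short and of the long transcript, and the long transcript's percentage of the gene. The gene overlaps between groups, while the short transcript is lower and the long transcript and its share are higher in every fasted library than in any control.

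Of the 187 member transcripts 178 were tested, and 4 were higher and 26 lower, where 16.2% of all transcripts were called, 7.19% higher and 8.98% lower. Ndufv3 was the one member with transcripts called in both directions. In 22 of the 27 called members the most abundant transcript was called the same way.

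Several complex IV subunits have a relative restricted to heart, skeletal muscle or brown fat. Cox8b and Cox7a1, known from those tissues, had the highest log2 differences of the members without being called (0.95 ± 0.47 and 0.47 ± 0.27, adjusted p = 0.146 and 0.200). Cox8b was at 0.806 to 9.24 FPKM in controls (median 2.18) and 2.12 to 18.7 FPKM in fasted aortae (median 4.99). Its highest values, 18.7, 9.54 and 9.24 FPKM, were in fasted replicates 3 and 1 and control replicate 6. Without control replicate 6 Cox8b was called higher by limma (log2 difference 1.27, adjusted p = 0.0391). These were also the libraries with the most Ucp1, the uncoupling protein of brown adipocytes, at 15.8, 13.5 and 6.52 FPKM, against at most 3.95 FPKM elsewhere. Of 7 brown adipocyte markers 4 were listed and 2 of them, Cidea and Cpt1b, were higher. The 4 listed markers summed to 31.8 to 48.9 FPKM in controls and 45.6 to 72.6 FPKM in fasted aortae. This sum was highest in fasted replicates 1 and 3 (72.6 FPKM each). Control replicate 6 (48.9 FPKM) lay below fasted replicate 2 (61.2 FPKM) and near fasted replicates 4 and 5 (48.4 FPKM each). The part of brown adipocyte RNA in these values was not tested. The markers of brown fat and heart named here were picked from their lists after their values were seen.

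Cox6a2, the heart and skeletal muscle relative of Cox6a1, was at 4.92 and 3.07 FPKM in fasted replicates 5 and 6 and at or below 1.72 FPKM in the other libraries. The same libraries had the most RNA of the cardiac markers Myh6 (27.5 and 16.7 FPKM) and Myl7 (28.5 and 22.1 FPKM). The 7 cardiac markers summed to 27.5 to 57.6 FPKM in controls and 38.7 to 245 FPKM in fasted aortae, with Tnnt2 the one called higher, and their part in the Cox6a2 values was not tested. As shares of their pairs, Cox8b and Cox7a1 made up 2.03% and 2.10% in controls and 4.62% and 3.41% in fasted aortae, with wide spreads (exact permutation tests, adjusted p = 0.252 for both). Of 7 such shares, 1 was called: Atp5g1 made up 10.3% ± 1.64 of the c subunit RNA in controls and 8.07% ± 0.959 in fasted aortae (exact permutation test, p = 0.00649, adjusted p = 0.0455), a call lost without any of 8 of the 12 libraries.

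**Figure D4:**
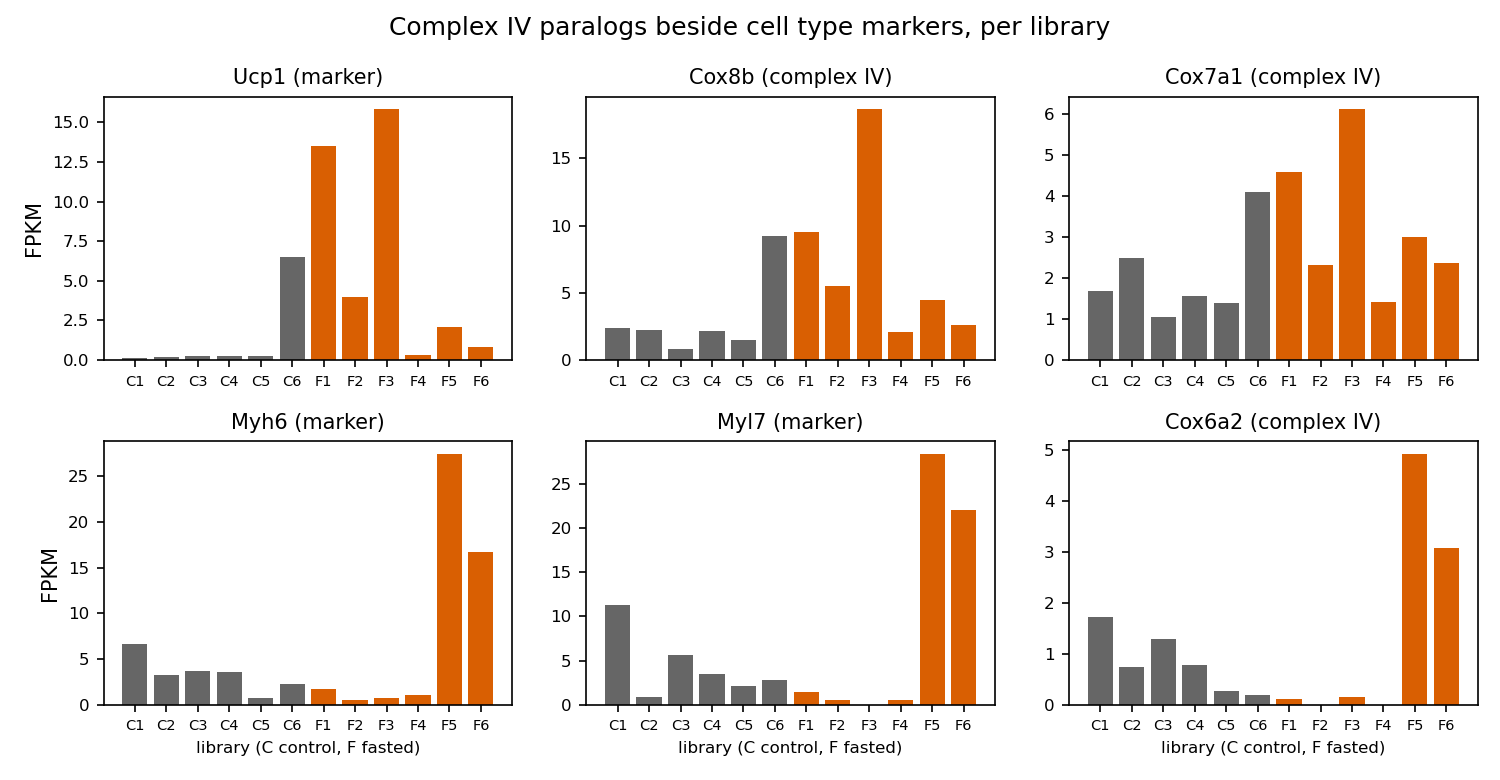
FPKM in each library (C1 to C6 control, F1 to F6 fasted) of 3 complex IV relatives and of markers of brown adipocytes (Ucp1) and heart muscle (Myh6, Myl7). Cox8b and Cox7a1 are highest where Ucp1 is highest (F3, F1, C6), and Cox6a2 where Myh6 and Myl7 are highest (F5, F6). The markers shown were picked from longer lists after their values were seen. The sum of the 4 listed brown adipocyte markers was higher in F2 than in C6 (61.2 and 48.9 FPKM).

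Genes that build and regulate the chain, outside the symbol rule, were taken from 8 lists with 91 genes, of which 89 were tested. Of these 3 were higher and 27 lower, with a median log2 difference of -0.15. The 33.7% called lay near the 31.7% of all genes tested, with 3.37% higher against 13.8% and 30.3% lower against 17.9%. Complex IV assembly factors had 10 of 22 lower (45.5%) and none higher. Cox16, which helps to insert copper into the oxidase, ran from 21.7 to 30.3 FPKM in controls (median 28.0) and from 12.9 to 18.8 FPKM in fasted aortae (median 15.2), without overlap. It fell 1.70-fold (log2 difference -0.73 ± 0.11, adjusted p = 0.000297). Coa3, which stabilises newly made Cox1 protein, fell 1.36-fold (adjusted p = 0.000645).

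For complex III, 3 of 6 factors fell: Bcs1l, which inserts the Rieske protein, fell 1.60-fold, from 5.14 ± 0.305 to 3.22 ± 0.391 FPKM (adjusted p = 0.000111). With only its most abundant transcript Bcs1l was not called (log2 difference -0.15, adjusted p = 0.395). Uqcc2, needed for cytochrome b synthesis, fell 1.68-fold, from 40.3 ± 3.48 to 24.0 ± 6.22 FPKM (adjusted p = 0.00111). Uqcrfs1, the client of Bcs1l, was among the 3 members that rose. For complex II, 3 of 4 factors fell, among them Sdhaf4, which binds the flavin subunit (1.48-fold, adjusted p = 0.000385). For complex I, 2 of 8 fell: Timmdc1, a membrane-arm factor, fell from 10.03 ± 0.539 FPKM to 6.82 ± 0.445 FPKM (a log2 difference of -0.50 ± 0.05, adjusted p = 3.46e-05), and Dmac1, another membrane-arm factor, fell 1.22-fold (adjusted p = 0.00416). Called lower were thus 50%, 75% and 25% of the complex III, II and I factors, in these short lists, against 17.9% of all genes tested. None of the 3 ATP synthase factors was called by limma, with 1 at an unadjusted p under 0.05.

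Of 11 genes of coenzyme Q synthesis, which makes the quinone that carries electrons to complex III, 5 fell (45.5%, against 17.9% of all genes). Coq7 fell 1.30-fold (adjusted p = 0.00370) and Coq4 1.44-fold (adjusted p = 0.00710, and 0.109 with only its most abundant transcript). Of 26 genes of mitochondrial DNA copying, transcription and RNA handling, 1 rose and 4 fell. These were 3.85% and 15.4% of the list, both below the 13.8% higher and 17.9% lower of all genes tested. Polg, the mitochondrial DNA polymerase, rose from 2.94 ± 0.600 FPKM to 4.61 ± 0.586 FPKM (a log2 difference of 0.52 ± 0.10, adjusted p = 0.00244). Tfb1m, which methylates the small mitochondrial rRNA, fell from 4.64 ± 0.597 FPKM to 2.58 ± 0.412 FPKM (a log2 difference of -0.66 ± 0.09, adjusted p = 0.000212). Among 9 nuclear regulators 2 rose (22.2%, against 13.8% of all genes tested). The transcription factor Yy1 rose from 14.2 ± 0.808 to 16.9 ± 0.944 FPKM (adjusted p = 0.00414). The coactivator Ppargc1b rose too (adjusted p = 0.0393, a call lost without any of 8 libraries, adjusted p up to 0.0785). The regulators Ppargc1a, Nrf1, Gabpa and Esrra, named after their values were seen, were not called, with log2 differences of 0.07, -0.05, -0.09 and 0.03.

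**Figure D5:**
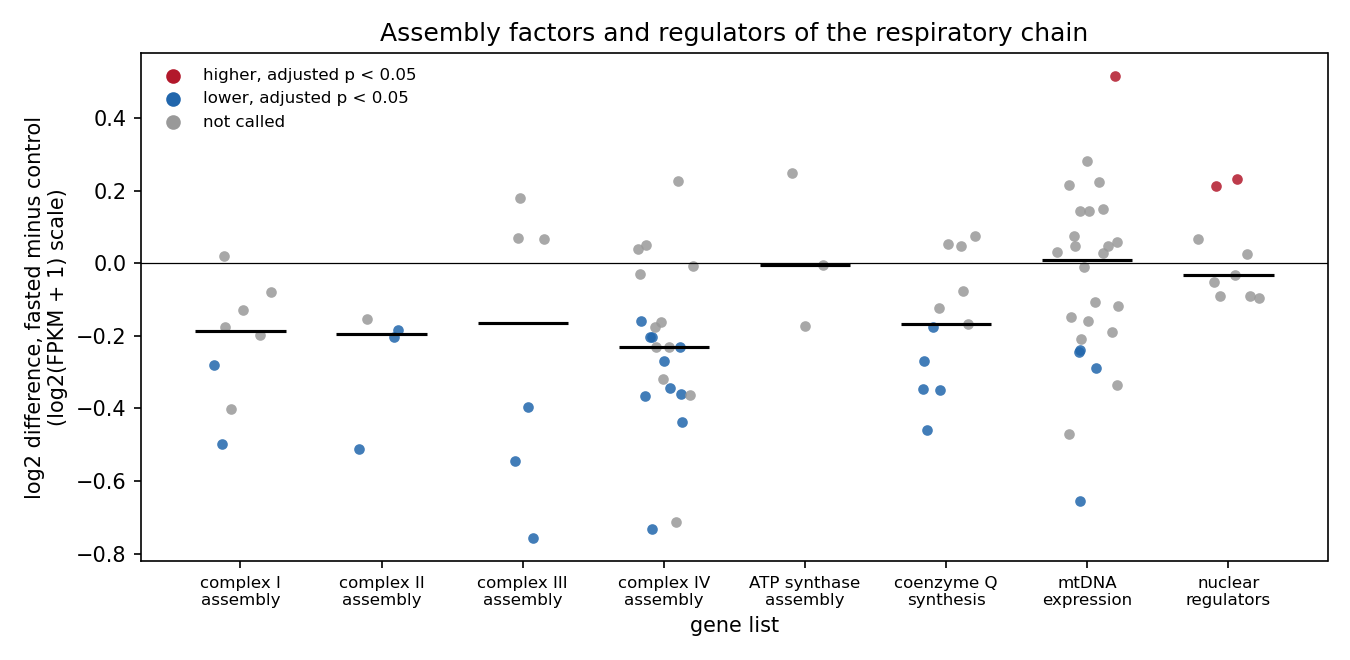
Log2 difference, fasted minus control, of 89 tested genes in 8 lists (bars mark medians). Complex IV assembly factors hold 10 of the 27 lower genes, and Polg, Yy1 and Ppargc1b are the 3 higher ones.

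The letters of binding motifs of such regulators were counted in promoters, as a description with no test. RefSeq promoters (GRCm38.p6, 250 bases before the start) were matched for 76 of the 93 nuclear members. The comparison was with all 27025 genes with a promoter, which include genes not listed in these data. The NRF1 motif, GCGCA and GCGC with 1 base between them, on either strand, was in 18.4% of the matched members. Of all genes with a promoter, 4.23% held it. The ETS motif CCGGAAG was in 18.4% and 7.83%. The YY1 motif ATGGCGG was in 6.58% and 2.58%, and the ERRA motif AAGGTCA in 6.58% and 4.70%; none of these motifs contains another. Of the 21 matched members called lower, 2 held the NRF1 motif, 4 the ETS, 3 the YY1 and 2 the ERRA motif. Of the 52 not called, 12, 10, 2 and 3 did in the same order, and of the 3 called higher none. A match is a description of the letters and not a bound site. The promoters of Sdhd, not called, with an NRF1 match 79 and an ETS match 46 bases before the start (in capitals), and of Ndufaf5, the assembly factor with the largest fall among the members, with no match, are shown as examples of both kinds.
Sdhd (chr9:50603850-50604099, minus strand): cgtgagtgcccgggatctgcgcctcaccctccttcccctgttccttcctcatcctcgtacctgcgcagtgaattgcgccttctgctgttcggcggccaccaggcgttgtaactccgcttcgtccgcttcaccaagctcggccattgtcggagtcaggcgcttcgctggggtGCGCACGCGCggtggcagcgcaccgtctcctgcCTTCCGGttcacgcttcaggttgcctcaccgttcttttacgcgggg
Ndufaf5 (chr2:140170396-140170645, plus strand): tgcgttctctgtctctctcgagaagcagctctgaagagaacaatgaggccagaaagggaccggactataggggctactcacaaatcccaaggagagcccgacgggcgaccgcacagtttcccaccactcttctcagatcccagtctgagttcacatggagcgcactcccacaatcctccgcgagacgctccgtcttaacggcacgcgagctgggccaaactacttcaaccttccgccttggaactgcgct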

How the data were processed

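The authors deposited transcript-level FPKM for the 12 libraries in a single table. Per the labels' protocols, fat was removed, RNA was extracted with Trizol and selected with oligo(dT), and strand-specific libraries (KAPA) were read from both ends on a NovaSeq. FastQC, cutadapt, HISAT2, StringTie and GRCm38 are named in the submitters' processing notes. What else these steps involved was not given in the sources used here. Not one listed transcript averaged under 0.5 FPKM in both groups. Depth is unknown, so no counting interval was computed.

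Transcripts were mapped to genes through GENCODE release M21 (21493 with their version, 1162 with another, 44 unmatched) and summed. A gene was tested if 6 or more libraries reached 0.5 FPKM. The test was limma 3.58.1 in R 4.3.3 (lmFit, then eBayes with trend) of log2(FPKM + 1). Transcripts were tested likewise, and isoform shares with limma on the arcsine square root. How the authors split reads between near-identical copies was not found in the labels, so members with processed pseudogenes are uncertain to that extent. The design allowed for counts; since the table holds FPKM, its limma test was used. The tests were tested on simulated data.

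The rule for named genes takes all 13 mitochondrial genes, the 3 highest members and the 4 with the smallest p of each complex, both members of each paralog pair and the 2 genes with the smallest p of each pathway list. The members and lists were chosen with earlier results of these data known. Alternatives covered pseudocount, filter, scaling, transcript choice, identifier version, robust fitting, a replicate block and leaving out each library. The levels of 10 lists of cell type markers were read in the same fit.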

Additional observations from a re-analysis of the deposited data

Results flagged for a closer look

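In 12 of 176 groups of 6 values examined, 1 library lay far from the other 5, by a gap of more than the critical share of the group's range; chance alone sets apart about 5% of such groups. Fasted replicate 3 was the highest fasted library for Cox6a1 (223.8 FPKM, gap 0.743 of the range), Ndufa4l2 (10.3 FPKM, 0.707) and Uqcrq (36.0 FPKM, 0.722), and the lowest for Sdha (52.4 FPKM, 0.718). Fasted replicate 1 was the lowest for Ndufaf2 (12.7 FPKM, 0.704), Ndufs6 (32.5 FPKM, 0.731), Sdhd (39.5 FPKM, 0.773) and Uqcrb (119.7 FPKM, 0.685). Control replicate 4 was the highest control for Ndufaf8 (18.7 FPKM, 0.730), and fasted replicate 6 the highest fasted library for Sdhaf3 (1.23 FPKM, 0.654). Control replicate 6, the control with the most Ucp1, was set apart for Cox8b (9.24 FPKM, 0.817) and for the share of Cox8b in its pair (6.58%, 0.818).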

How the results depend on the processing

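No result reversed under any alternative. The calls of members were 27 with either smaller pseudocount, without a filter, with the stricter filter and with robust fitting, and 26 with median-of-ratios scaling or with scaling that left out mitochondrial genes. Leaving out 1 library gave 21 to 35 called members (3 to 4 higher, 18 to 31 lower; the same ranges for nuclear members), 0 mitochondrial members, 21 to 31 pathway genes (2 to 4 higher, 19 to 29 lower) and 22 to 33 member transcripts (4 to 5 higher, 18 to 28 lower). Over all genes it gave 3331 to 4168 calls (1408 to 1861 higher, 1878 to 2307 lower). With only identifiers that matched with their version, 1 member and 1 nuclear member were called higher, since Cox7a2l and Ndufa6 then have no transcript. Pathway genes called higher numbered 5 with either rescaling, and the cause was not tested. The count of called paralog shares was 0 with the most abundant transcript only and 0 to 2 without 1 library. Same-numbered libraries did not deviate together (correlations -0.00634 to 0.0845), so the numbers were not taken as pairs. With the replicate number as a block, 30 members were called, 25 of the 27 among them, no paralog share was called (0), and the Ndufv3 long share, 12.9 points higher, missed the threshold (adjusted p = 0.102); without 1 library it was 11.95 to 13.9 points higher. Depth is unknown, so low members such as Ndufaf4 and Cox6a2 carry an unknown counting error.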
